A study of Homo sapiens with 16 samples.

Results

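Ferritin and the proteins that take up, export, sense and release iron were followed at the message level through 9 genes, *FTH1*, *FTL*, *TFRC*, *SLC40A1*, *SLC11A2*, *IREB2*, *ACO1*, *FBXL5* and *NCOA4*. They were taken by symbol from a table of 25369 genes, and all 9 were found. The libraries are polyadenylated RNA of 2 human papillary thyroid carcinoma lines with wild type p53, TPC1 grown in RPMI and K1 grown in DMEM. Each line received for 24 h either 0.2% DMSO as vehicle, 10 µM nutlin (Nutlin-3a, which frees p53 from MDM2), 25 µM GSK2830371 (an inhibitor of the phosphatase PPM1D) or both drugs, here called the combination. Every group holds 2 libraries, so there are 8 per line and 16 in all. Line, medium and any difference in handling between the lines cannot be told apart, and each line stands as a single model. The study describes its replicates in general as prepared independently, while the sample labels do not say how the 2 libraries of a group were made, and p values measure the spread between these libraries.

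Cells bring in iron bound to transferrin through the transferrin receptor, move it out of the endosome, store it inside a shell of ferritin heavy and light chains, and send it out through ferroportin. A pair of cytosolic iron regulatory proteins holds these steps together by binding a stem-loop called the iron responsive element. Bound near the start of a message they block its translation, as in ferritin and ferroportin, and bound after the coding sequence they protect it from decay, as in the transferrin receptor. Much of ferritin control is therefore translational, and the values here are levels of messages, not of proteins.

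The elements that set these messages apart are shown in transcript sense, from the GRCh37 genome, for the members whose canonical GENCODE transcript holds the pattern. Capitals mark the unpaired C and the loop of 6 bases, and the letters between the C and the loop pair with those after the loop. The first 3 lie in exon 1, in the 5′ UTR, and the 4 matches to the pattern in *TFRC* lie in exon 19, in the 3′ UTR.
FTH1, chr11:61735046-61735074, minus strand: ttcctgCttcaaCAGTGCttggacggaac
FTL, chr19:49468592-49468620, plus strand: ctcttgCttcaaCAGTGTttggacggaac
SLC40A1, chr2:190445387-190445415, minus strand: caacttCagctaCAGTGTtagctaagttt
TFRC, chr3:195777850-195777878, minus strand: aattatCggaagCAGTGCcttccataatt
TFRC, chr3:195777446-195777474, minus strand: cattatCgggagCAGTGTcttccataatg
TFRC, chr3:195777381-195777409, minus strand: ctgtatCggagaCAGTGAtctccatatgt
TFRC, chr3:195777334-195777362, minus strand: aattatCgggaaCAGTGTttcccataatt

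The search took a C, then 5 bases, then CAGTG with A, C or T after it, then 5 bases able to pair with the first 5, G with T included, on the transcript strand only. It matched 184 of 19553 canonical coding transcripts, or 0.941%. The transcripts of the other 5 members did not hold these letters, from which nothing follows about binding.

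K1 libraries held 28888686 to 37161241 counts in total and TPC1 libraries 30789887 to 76648552. In TPC1 the libraries numbered 1 held 30789887 to 36896529 counts and those numbered 3 held 62853375 to 76648552, so within-number ratios stand beside the pooled values of the members that changed. The table names TPC1 columns 1 and 3 where the sample labels number 1 and 2, and the columns numbered 3 were assigned to their treatment alone. Of the thyroid markers, *PAX8* (280 to 841 CPM) and *FOXE1* (22.0 to 38.1 CPM) were present, whereas *TG* reached at most 6.18 CPM, *NKX2-1* and *SLC5A5* stayed under 1 CPM and *TSHR* had no count. The keratins *KRT8* and *KRT18* were at or above 114 CPM in all libraries. *CDKN1A* and *MDM2*, targets of p53, marked the nutlin and combination libraries as labelled, with log2 fold changes under nutlin of 5.61 ± 0.14 and 4.96 ± 0.11 in TPC1 and of 3.16 ± 0.06 and 3.05 ± 0.07 in K1. GSK2830371 alone also raised *CDKN1A* in K1 (1.01 ± 0.06), where *MDM2* moved by 0.36 ± 0.06, under 1.5-fold. In TPC1 its shifts were 0.28 ± 0.12 and 0.18 ± 0.09, neither of them called.

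Levels of single libraries are given in CPM, the count scaled by the library's total and not by TMM. Log2 fold changes carry their standard error and come from the quasi-likelihood F test of edgeR with TMM scaling, and adjusted p values are Benjamini-Hochberg values over all genes tested, 15273 in TPC1, 15900 in K1 and 16738 across the lines. A gene is called raised or lowered where that adjusted p is under 0.05 and the fold change exceeds 1.5. All 9 members passed the filter on low counts in each fit. The plot of CPM by library shows every value.

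**Figure D1:**
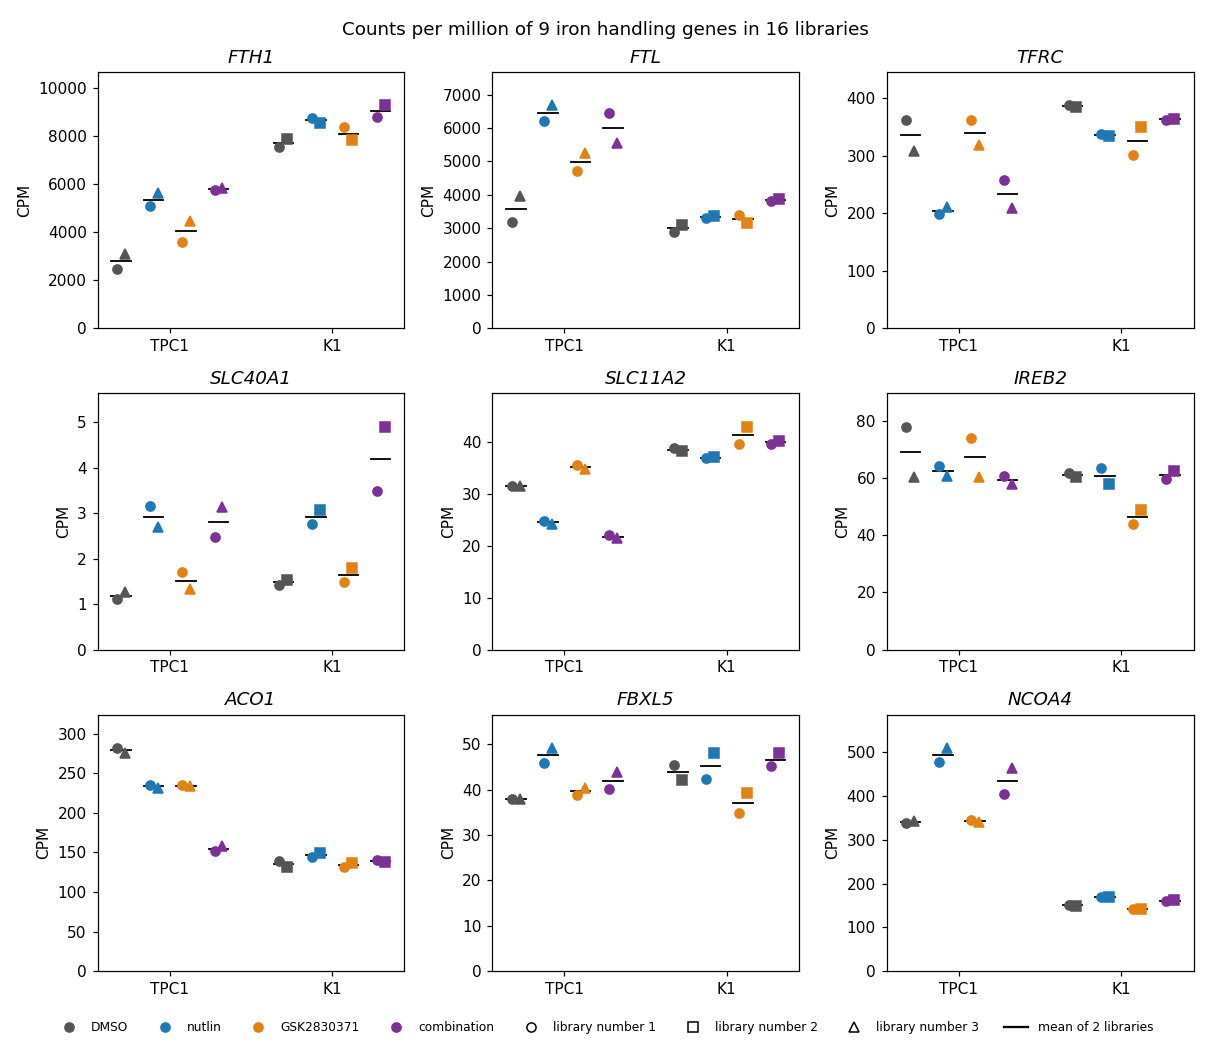
CPM of the 9 members in each of the 16 libraries, by line and treatment, on axes that start at 0. Points are libraries, with shapes for the library number, and bars are means of 2 libraries. The ferritin genes and *TFRC* separate the nutlin from the DMSO libraries of TPC1 far more than those of K1, and *SLC40A1* does so in both lines.

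Ferritin messages rose in TPC1 under nutlin and under the combination and moved little in K1. *FTH1* (chromosome 11, 61727190 to 61735106), which encodes the heavy chain that oxidises iron for storage, stood at 2470.4 and 3102 CPM in DMSO libraries 1 and 3 of TPC1. It stood at 5079 and 5605 CPM with nutlin, at 3593 and 4479 CPM with GSK2830371 and at 5740.3 and 5827 CPM with the combination. Each treated library was above both DMSO libraries, and those with nutlin, alone or combined, were above those with GSK2830371. The log2 fold change was 0.97 ± 0.14 under nutlin (adjusted p = 0.000349) and 1.10 ± 0.14 under the combination (adjusted p = 0.000118), and 0.48 ± 0.14 under GSK2830371 (adjusted p = 0.0985), short of the threshold, by edgeR with Benjamini-Hochberg. Within numbers 1 and 3 the log2 ratio of nutlin to DMSO was 1.04 and 0.85, that of GSK2830371 was 0.54 and 0.53, and that of the combination was 1.22 and 0.91. In bulk RNA, fewer cells of a kind and less RNA per cell cannot be told apart.

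*FTL* (chromosome 19, 49468566 to 49470136), the light chain that favours mineral formation in the shell, was at 3186 and 3963 CPM in the DMSO libraries of TPC1. Nutlin libraries held 6225 and 6683 CPM, GSK2830371 libraries 4718 and 5265 CPM and combination libraries 6464 and 5566 CPM. Again no treated library fell into the DMSO range. The log2 fold change was 0.88 ± 0.13 under nutlin (adjusted p = 0.00034) and 0.80 ± 0.13 under the combination (adjusted p = 0.000488), and 0.43 ± 0.13 under GSK2830371 (adjusted p = 0.103), by edgeR with Benjamini-Hochberg. Within numbers 1 and 3 the log2 ratio to DMSO was 0.97 and 0.75 for nutlin, 0.57 and 0.41 for GSK2830371 and 1.02 and 0.49 for the combination.

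K1 started from another point. Its DMSO libraries held 7553 and 7883 CPM of *FTH1* and 2883 and 3102 CPM of *FTL*. Nutlin libraries reached 8752 and 8532 CPM of *FTH1* and 3314 and 3379 CPM of *FTL*, and combination libraries 8759.9 and 9266 CPM and 3821 and 3889 CPM. Neither treatment overlapped DMSO, yet the shifts were small, 0.17 ± 0.06 for *FTH1* (adjusted p = 0.0291) and 0.17 ± 0.06 for *FTL* (adjusted p = 0.0351) under nutlin by edgeR with Benjamini-Hochberg. Under the combination they were 0.19 ± 0.06 (adjusted p = 0.0125) and 0.33 ± 0.06 (adjusted p = 0.000333) in the same edgeR test with Benjamini-Hochberg, all under 1.5-fold. With GSK2830371 the libraries held 8356 and 7818 CPM of *FTH1*, which overlapped DMSO, and 3393 and 3156 CPM of *FTL*, which did not.

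*FTH1* was the second gene by counts in all 8 K1 libraries and ranked 6 to 25 in TPC1, while *FTL* ranked 11 to 13 in K1 and 3 to 17 in TPC1. Together they took 0.566% and 0.707% of the counts in TPC1 with DMSO, 1.13% and 1.23% with nutlin, 0.831% and 0.974% with GSK2830371 and 1.22% and 1.14% with the combination. In K1 the share ran from 1.04% to 1.32% over the 8 libraries. Both genes have many processed copies in the genome and reads of mapping quality under 10 were not counted, so reads that copies share with their parents may be missing and the levels of both are uncertain. Rows of the table named as copies held almost nothing, with at most 17 counts in a library for *FTH1P3* and at most 2 for *FTH1P18*, and no counts for *FTHL17* and *FTLP10*.

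The balance of the chains is given by the counts of both genes. The ratio of *FTL* to *FTH1* counts, which does not depend on scaling, was 1.28 ± 0.00843 (SD, n = 2) in TPC1 with DMSO, 1.21 ± 0.0235 with nutlin, 1.24 ± 0.0972 with GSK2830371 and 1.04 ± 0.121 with the combination. In K1 it was 0.388 ± 0.00833 with DMSO, 0.387 ± 0.0122 with nutlin, 0.405 ± 0.00165 with GSK2830371 and 0.428 ± 0.0117 with the combination. Combination libraries 1 and 3 of TPC1, at 1.13 and 0.955, were the lowest of that line, and those of K1, at 0.436 and 0.420, the highest of theirs. Divided by transcript length the DMSO ratio was 1.77 in TPC1 and 0.535 in K1. No test was made of the ratio.

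**Figure D2:**
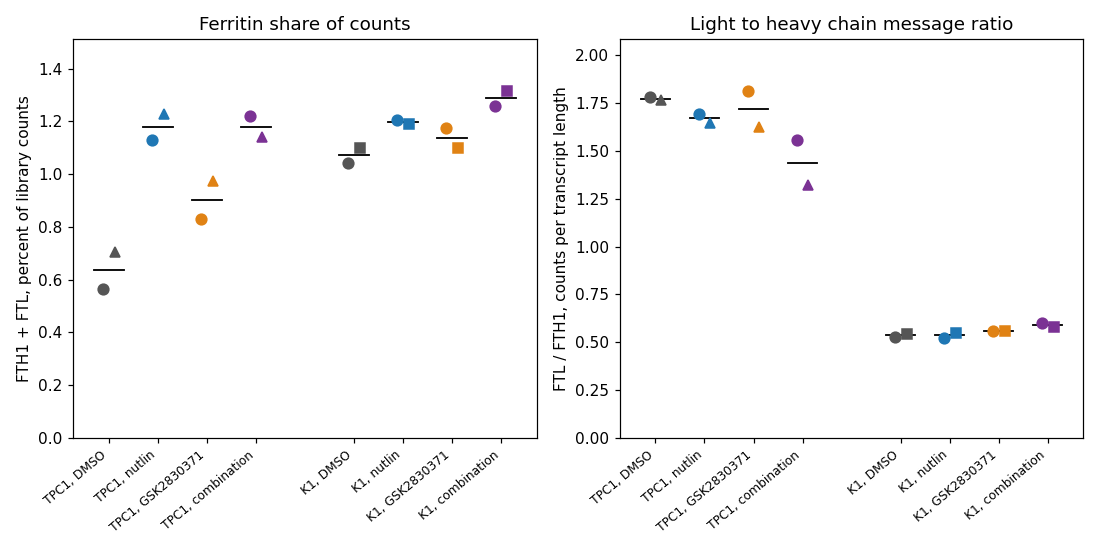
Left, share of library counts taken by *FTH1* and *FTL*, in percent. Right, ratio of *FTL* to *FTH1* counts per transcript length, both by line and treatment with 1 point per library and bars at the mean of 2. The share climbs from 0.566% and 0.707% with DMSO to 1.13% and 1.23% with nutlin in TPC1, and the ratio stays above 1 in TPC1 and below it in K1.

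Of the uptake genes among the members, *TFRC* was called lowered under nutlin in TPC1 and *SLC11A2* was not called against DMSO in either line. *TFRC* (chromosome 3, 195739382 to 195809024), the transferrin receptor, was at 362 and 309 CPM in DMSO libraries 1 and 3, at 199 and 210.3 CPM with nutlin, at 362 and 319 CPM with GSK2830371 and at 258 and 209 CPM with the combination. Both nutlin and both combination libraries lay below DMSO, whereas GSK2830371 overlapped it. The log2 fold change was −0.68 ± 0.12 under nutlin (adjusted p = 0.000894), called lowered, and −0.47 ± 0.12 under the combination (adjusted p = 0.00566), under 1.5-fold, by edgeR with Benjamini-Hochberg. Within numbers 1 and 3 the ratio to DMSO was −0.86 and −0.56 for nutlin and −0.49 and −0.57 for the combination. The nutlin call was lost without DMSO library 1 (−0.57) and with offsets for GC content and length (−0.55), and the combination was called without combination library 1 (−0.62).

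In K1 *TFRC* stayed near its DMSO level. The libraries held 388 and 385 CPM with DMSO, 338 and 335 with nutlin, 302 and 350.0 with GSK2830371 and 363 and 365 with the combination. All 6 treated libraries were below DMSO, by −0.19 ± 0.06 under nutlin (adjusted p = 0.0337), −0.24 ± 0.06 under GSK2830371 (adjusted p = 0.0165) and −0.12 ± 0.06 under the combination (adjusted p = 0.14) in edgeR with Benjamini-Hochberg.

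*SLC11A2* (chromosome 12, 51373184 to 51422349), the transporter DMT1 that moves ferrous iron out of endosomes, was at 31.5 and 31.6 CPM with DMSO in TPC1. It was at 24.9 and 24.2 CPM with nutlin, at 35.6 and 34.8 CPM with GSK2830371 and at 22.1 and 21.4 CPM with the combination. The groups did not overlap, and both nutlin groups were the low ones. Its changes stayed under 1.5-fold, −0.33 ± 0.07 under nutlin (adjusted p = 0.00325) and −0.49 ± 0.07 under the combination (adjusted p = 0.00026, edgeR with Benjamini-Hochberg). In K1 it kept between 37.0 and 43.0 CPM in all 8 libraries, with no adjusted p under 0.05 against DMSO.

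The message of the exporter among the members rose in both lines under nutlin and the combination, from a low level. *SLC40A1* (chromosome 2, 190425316 to 190448484) encodes ferroportin, the exporter of ferrous iron, and had 41 to 197 counts per library. In TPC1 it was at 1.11 and 1.27 CPM with DMSO, 3.15 and 2.70 CPM with nutlin, 1.71 and 1.33 CPM with GSK2830371 and 2.47 and 3.13 CPM with the combination. In K1 it was at 1.42 and 1.53 CPM with DMSO, 2.77 and 3.08 CPM with nutlin, 1.48 and 1.79 CPM with GSK2830371 and 3.48 and 4.90 CPM with the combination. Every library with nutlin, alone or combined, was above all libraries without it in the same line. The log2 fold change was 1.30 ± 0.22 (adjusted p = 0.000759) in TPC1 and 1.00 ± 0.21 (adjusted p = 0.00267) in K1 under nutlin, by edgeR with Benjamini-Hochberg. Under the combination it was 1.28 ± 0.21 (adjusted p = 0.000618) in TPC1 and 1.47 ± 0.20 (adjusted p = 4.37e-05) in K1 in the same edgeR test with Benjamini-Hochberg. The ratios within numbers 1 and 3 of TPC1 were 1.503 and 1.09 for nutlin and 1.151 and 1.30 for the combination. *SLC40A1* was the only member called in K1 in the comparisons of a treatment with DMSO.

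Of the genes that sense iron, *ACO1* alone was called against DMSO, and only under the combination in TPC1. *ACO1* (chromosome 9, 32384601 to 32454767) encodes iron regulatory protein 1, which is a cytosolic aconitase when it carries an iron-sulfur cluster and binds the stem-loops when it does not. In TPC1 it was at 282 and 276 CPM with DMSO, 235 and 231 CPM with nutlin, 236 and 234 CPM with GSK2830371 and 151 and 158 CPM with the combination. The single drugs sat side by side below DMSO and the combination stood apart from all other groups. The effect of nutlin on top of GSK2830371 less that of nutlin alone was −0.27 ± 0.10 (adjusted p = 0.127, edgeR with Benjamini-Hochberg), not called. The combination changed it by −0.80 ± 0.07 (adjusted p = 9.04e-06), against −0.23 ± 0.07 under nutlin (adjusted p = 0.0213) and −0.30 ± 0.07 under GSK2830371 (adjusted p = 0.0526, edgeR with Benjamini-Hochberg). Within numbers 1 and 3 the combination ratio was −0.90 and −0.80. In K1 all 8 libraries lay between 132 and 149 CPM, and the combination differed from DMSO by 0.01 ± 0.05 (adjusted p = 0.899, edgeR with Benjamini-Hochberg).

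*IREB2* (chromosome 15, 78729773 to 78793795), iron regulatory protein 2, is degraded when iron is plentiful. TPC1 libraries held 77.9 and 60.4 CPM with DMSO, 64.2 and 60.7 with nutlin, 73.9 and 60.5 with GSK2830371 and 60.6 and 57.9 with the combination, and no group stood clear of the spread of DMSO. In K1, GSK2830371 libraries at 43.98 and 48.8 CPM lay below all others, which ran from 57.9 to 63.7 CPM. That shift was −0.39 ± 0.07 (adjusted p = 0.00167 by edgeR with Benjamini-Hochberg), under 1.5-fold.

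*FBXL5* (chromosome 4, 15606004 to 15683302) encodes the ubiquitin ligase subunit that senses iron and marks iron regulatory protein 2 for degradation. It went from 37.9 CPM in both DMSO libraries of TPC1 to 46.0 and 49.2 CPM with nutlin and 40.1 and 43.8 CPM with the combination, with a nutlin shift of 0.36 ± 0.08 (adjusted p = 0.00517, edgeR with Benjamini-Hochberg). K1 libraries held 34.9 to 48.2 CPM, the lowest being those with GSK2830371, and none of the 3 treatments had an adjusted p under 0.05 against DMSO.

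*NCOA4* (chromosome 10, 51565199 to 51590734), the receptor that hands ferritin to autophagosomes for breakdown, rose under nutlin in TPC1 from 338 and 343 CPM to 479 and 509.7 CPM. With GSK2830371 it was at 345 and 341 CPM and with the combination at 404 and 464 CPM. Only GSK2830371 overlapped DMSO. The shift was 0.57 ± 0.09 under nutlin (adjusted p = 0.000537) and 0.40 ± 0.09 under the combination (adjusted p = 0.0034), by edgeR with Benjamini-Hochberg. The nutlin value sat just under 1.5-fold, at 1.48-fold, and was called without DMSO library 3 (0.61), without nutlin library 1 (0.61) and with offsets for GC content and length (0.71). In K1 it was at 151 and 149 CPM with DMSO and at 168 CPM in both nutlin libraries, a shift of 0.18 ± 0.05 (adjusted p = 0.014, edgeR with Benjamini-Hochberg).

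**Figure D3:**
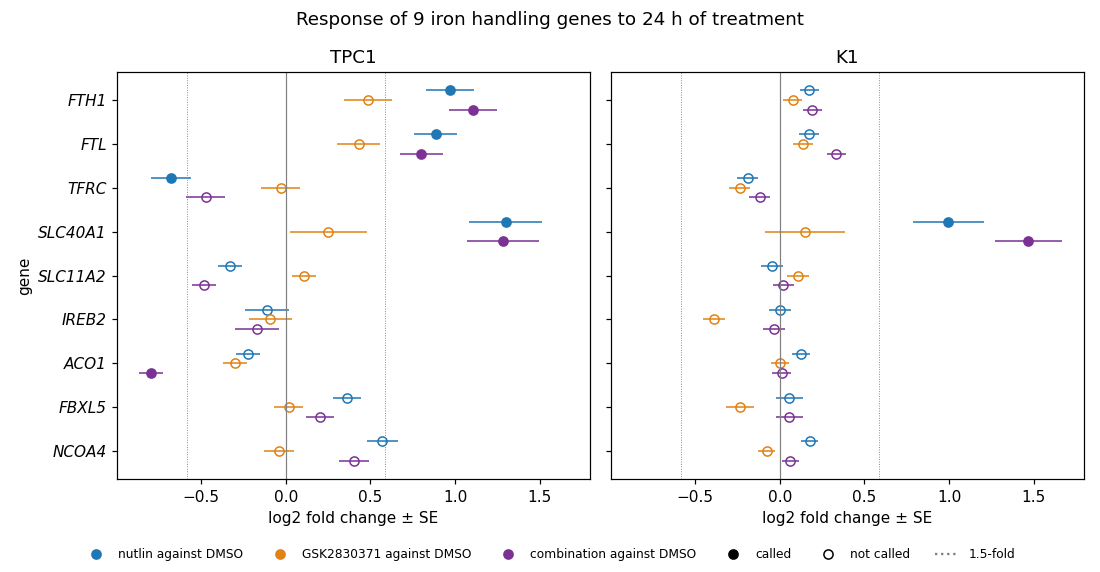
Log2 fold change against DMSO of the 9 members in TPC1 (left) and K1 (right), with bars for the standard error and dotted lines at 1.5-fold. Filled points are called at an adjusted p under 0.05 (edgeR) with more than 1.5-fold, open points are not. In TPC1 4 members are filled under nutlin and 4 under the combination, in K1 only *SLC40A1*.

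Counted over the members, nutlin raised 3 (*FTH1*, *FTL*, *SLC40A1*) and lowered 1 (*TFRC*) of 9 in TPC1, where 35.5% of all genes tested were called, and raised 1 of 9 in K1, where 9.27% were called. The share of members called in TPC1 was close to that of all genes, and 4 further members had an adjusted p under 0.05 at less than 1.5-fold in each line. The combination raised the same 3 genes and lowered *ACO1* in TPC1, against 44.2% of all genes called, and raised 1 of 9 in K1, against 15.7%. GSK2830371 alone had 0 of 9 members called in either line by edgeR, where 1.4% of all genes in TPC1 and 2.23% in K1 were called. At an unadjusted edgeR p under 0.05 there were 3 in TPC1 and 4 in K1, and DESeq2 called 0 in both. In K1 these included *TFRC* (adjusted p = 0.0165) and *IREB2* (adjusted p = 0.00167, edgeR with Benjamini-Hochberg), both under 1.5-fold. Here and below, the share of all genes at an unadjusted p under 0.05 is not given, so no excess is read from such counts. The median log2 fold change of the members was 0.36 under nutlin and 0.20 under the combination in TPC1 and 0.13 and 0.06 in K1, beside medians of all genes between −0.00185 and 0.0116. These comparisons share the DMSO libraries of their line.

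Adding GSK2830371 to nutlin gave no called member in either line, though *ACO1* fell in TPC1. In TPC1 0 of 9 were called by edgeR in the direct comparison of the combination with nutlin, beside 12.1% of all genes, with 1 at an unadjusted p under 0.05 and 0 called by DESeq2. That 1 was *ACO1*, which went down by −0.57 ± 0.07 (adjusted p = 0.00064, edgeR with Benjamini-Hochberg) at 1.49-fold, and was called without nutlin library 3 (−0.59), without combination library 3 (−0.62) or with scaling by library size (−0.59). In K1 0 of 9 were called by edgeR, beside 2.68% of all genes, with 3 at an unadjusted p under 0.05 and 0 by DESeq2. *SLC40A1* gained 0.47 ± 0.18 there (adjusted p = 0.114, edgeR with Benjamini-Hochberg), and both combination libraries were above both nutlin libraries.

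Adding nutlin to GSK2830371 raised *FTH1* (0.62 ± 0.14, adjusted p = 0.00438) and *SLC40A1* (1.03 ± 0.21, adjusted p = 0.00245) and lowered *SLC11A2* (−0.59 ± 0.07, adjusted p = 8.78e-05) in TPC1 by edgeR with Benjamini-Hochberg. That is 3 of 9, beside 38.5% of all genes. The *FTH1* call was lost without GSK2830371 library 1 (0.47), and the *SLC11A2* call, at 1.51-fold, without DMSO library 3, GSK2830371 library 1 or combination library 3 (−0.58 each). With offsets for GC content and length neither was called (0.54 and −0.47). *SLC11A2* was also not called with the filterByExpr filter (−0.58), with the compared groups alone (−0.58) or by DESeq2 (−0.57). With DESeq2 size factors the split of 2 raised and 1 lowered became 2 and 0, and with scaling by library size 1 and 2, *ACO1* (−0.60) being called and *FTH1* (0.52) not. *TFRC*, at −0.44 ± 0.12, was called without combination library 1 (−0.59). In K1 the comparison raised *SLC40A1* alone (1.32 ± 0.20, adjusted p = 0.000156, edgeR with Benjamini-Hochberg), 1 of 9 beside 13.1% of all genes.

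As an interaction, the effect of nutlin on top of GSK2830371 less that of nutlin alone was called by edgeR for 0 of 9 members in TPC1, beside 6.32% of all genes, with 3 at an unadjusted p under 0.05 and 0 by DESeq2. The lowest value was that of *FTL*, at −0.51 ± 0.18 (adjusted p = 0.117, edgeR with Benjamini-Hochberg), which was called without DMSO library 3 (−0.70) and with offsets for GC content and length (−0.62). In K1 it was called by edgeR for 0 of 9, beside 2.44% of all genes, with 2 at an unadjusted p under 0.05 and 0 by DESeq2. Those 2 were *TFRC* at 0.31 ± 0.09 (adjusted p = 0.0474) and *IREB2* at 0.36 ± 0.09 (adjusted p = 0.0348, edgeR with Benjamini-Hochberg), both under 1.5-fold.

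Per length of transcript, ferritin messages exceeded all other members in every group. With DMSO the order in TPC1, in mean CPM per kilobase, was *FTL* (4104), *FTH1* (2316), *NCOA4* (98.4), *TFRC* (67.0), *ACO1* (37.5), *IREB2* (10.9), *FBXL5* (10.9), *SLC11A2* (7.64) and *SLC40A1* (0.358). Only *IREB2* and *FBXL5* overlapped among neighbours. In K1 it was *FTH1* (6416), *FTL* (3436), *TFRC* (77.1), *NCOA4* (43.4), *ACO1* (18.2), *FBXL5* (12.6), *IREB2* (9.66), *SLC11A2* (9.33) and *SLC40A1* (0.444), with no overlap of neighbours. *FTL* and *FTH1*, and *NCOA4* and *TFRC*, thus stood in opposite order in the lines in all 4 treatments.

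Tested directly with DMSO, K1 exceeded TPC1 in *FTH1* by 1.46 ± 0.13 (adjusted p = 2.84e-08) and was lower in *ACO1* by −1.05 ± 0.07 (adjusted p = 4.38e-10) and in *NCOA4* by −1.19 ± 0.08 (adjusted p = 8.16e-10), by edgeR with Benjamini-Hochberg. These 3 of 9 stand beside 46.2% of all genes called between the untreated lines. *FTL* differed by −0.26 ± 0.11 (adjusted p = 0.0494) and *SLC11A2* by 0.28 ± 0.07 (adjusted p = 0.00162, edgeR with Benjamini-Hochberg), under 1.5-fold.

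The response to nutlin was smaller in K1 than in TPC1 for both ferritin chains, by −0.83 ± 0.18 for *FTH1* (adjusted p = 0.00182) and −0.75 ± 0.16 for *FTL* (adjusted p = 0.00196), in an edgeR test of the difference with Benjamini-Hochberg. These 2 of 9 stand beside 19.2% of all genes. The *FTL* difference was no longer called without DMSO library 1 of TPC1 (−0.57). *TFRC* differed by 0.45 ± 0.13 (adjusted p = 0.0157), *NCOA4* by −0.43 ± 0.11 (adjusted p = 0.0064) and *ACO1* by 0.32 ± 0.09 (adjusted p = 0.0153, edgeR with Benjamini-Hochberg), all under 1.5-fold. For *SLC40A1* the difference was −0.33 ± 0.31 (adjusted p = 0.482, edgeR with Benjamini-Hochberg), which at this error leaves room for either sign.

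The response to the combination differed by −0.94 ± 0.18 for *FTH1* (adjusted p = 0.000484) and by 0.78 ± 0.09 for *ACO1* (adjusted p = 5.41e-06) by edgeR with Benjamini-Hochberg, 2 of 9 beside 25.7% of all genes. *FTL*, at −0.49 ± 0.16, was called without DMSO library 3 (−0.69) or combination library 3 of TPC1 (−0.61), and *SLC11A2*, at 0.48 ± 0.10, with scaling by library size (0.59). For the response to GSK2830371, 0 of 9 were called by edgeR, beside 2.18% of all genes, with 2 at an unadjusted p under 0.05 and 0 by DESeq2. For the combination against nutlin between the lines, 0 of 9 were called by edgeR, beside 5.11%, with 2 at an unadjusted p under 0.05 and 0 by DESeq2. *ACO1* was the member with an adjusted p under 0.05 there, at 0.46 ± 0.09 (adjusted p = 0.005, edgeR with Benjamini-Hochberg).

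**Figure D4:**
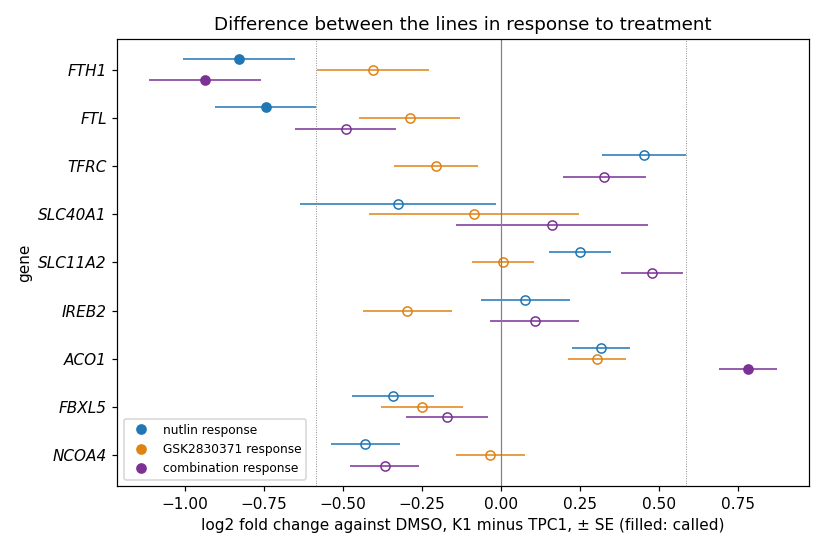
Difference between the lines in log2 fold change against DMSO, K1 minus TPC1, for the 9 members and each treatment, with bars for the standard error and dotted lines at 1.5-fold. Filled points are called. *FTH1* lies at −0.83 for nutlin and −0.94 for the combination, *FTL* at −0.75 for nutlin and *ACO1* at 0.78 for the combination.

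Among markers of other cell types, *COL1A1* was at 0.841 to 5.23 CPM in TPC1 and 0.722 to 3.78 CPM in K1, and *DCN* at 0 in TPC1 and at 0.305 to 0.589 CPM in K1. *PTPRC*, *CD163*, *PECAM1*, *CDH5*, *HBB* and *HBA1* stayed at or under 0.143 CPM throughout, with *HBB* at 0. The sum of all 10 such markers, mostly *CD68*, a lysosomal protein at 34.2 to 75.5 CPM, was 39.6 to 41.3 CPM with DMSO and 68.7 to 74.2 CPM with nutlin in TPC1, and 58.2 to 68.5 CPM and 75.9 to 77.7 CPM in K1. With the combination it was 45.0 to 56.7 CPM in TPC1 and 63.5 to 71.9 CPM in K1. In both lines it was higher with nutlin than with DMSO, and lower with the combination than with nutlin. With GSK2830371 it was 50.4 to 55.7 CPM in TPC1 and 61.0 to 66.2 CPM in K1. Its part in the ferritin results was not tested. The sum of the 4 epithelial markers *KRT8*, *KRT18*, *KRT19* and *EPCAM*, nearly all from the first pair, fell in TPC1, from 790 to 910 CPM with DMSO to 582 to 631 CPM with nutlin and 414 to 475 CPM with the combination. In K1 it was 1156 to 1236 CPM with DMSO, 1221 to 1235 CPM with nutlin and 920 to 985 CPM with the combination, and its part was not tested either. The 7 thyroid markers of TPC1 summed to 349 to 351 CPM with DMSO, 477 to 481 with nutlin and 306 to 356 with the combination. The K1 sums were 781 to 824, 870 to 880 and 814 to 859 CPM, and their part was not tested.

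Around the members, 70 other genes of iron, heme and iron-sulfur metabolism were listed, of which 58 were tested in TPC1 and 61 in K1. In TPC1, edgeR called 11 of them raised and 12 lowered under nutlin, 16 raised and 14 lowered under the combination, and 1 raised under GSK2830371. The K1 calls were 3 up and 2 down for nutlin, 7 up and 4 down for the combination, and 3 up for GSK2830371. Over all genes tested, 35.5%, 44.2% and 1.4% were called in TPC1 and 9.27%, 15.7% and 2.23% in K1 for the same treatments, and nothing particular to the iron genes is read from these counts. Their median log2 fold change was −0.03 under nutlin and 0.00 under the combination in TPC1 and −0.02 and −0.04 in K1, near that of all genes.

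Among listed genes with at least 5 CPM in the higher group, the largest rises under nutlin in TPC1 were those of *FDXR*, which passes electrons to mitochondrial ferredoxin (from 25.8 ± 2.81 to 399 ± 1.46 CPM, log2 3.98 ± 0.11), the heme transporter *SLC48A1* (2.31 ± 0.10) and *ISCU*, the scaffold of iron-sulfur clusters (1.91 ± 0.09). The largest falls were those of the metal importer *SLC39A8* (−1.77 ± 0.10), *NDOR1* (−1.06 ± 0.11), a reductase of cytosolic cluster assembly, and the mitochondrial glutaredoxin *GLRX5* (−0.95 ± 0.08). Under the combination *FDXR* (4.34 ± 0.11), *HMOX1* (2.33 ± 0.24) and *SLC48A1* (2.32 ± 0.10) led the rises, and *SLC39A8* (−1.53 ± 0.09), the endosomal ferrireductase *STEAP3* (−1.36 ± 0.10) and the heme exporter *FLVCR1* (−1.23 ± 0.11) the falls. In K1 *FDXR* (2.48 ± 0.07), *ISCU* (0.82 ± 0.06) and *LRP1*, a receptor that takes up heme bound to hemopexin (0.70 ± 0.06), rose under nutlin, and *FAM132B*, which encodes erythroferrone (−0.78 ± 0.08), and *NDOR1* (−0.74 ± 0.06) fell. The combination in K1 raised *FDXR* (2.78 ± 0.07), *ISCU* (0.90 ± 0.06) and *LRP1* (0.83 ± 0.06) and lowered *FAM132B* (−1.21 ± 0.08), *NDOR1* (−0.76 ± 0.06) and the metalloreductase *STEAP1* (−0.62 ± 0.08), the last not called with library size scaling (−0.58) or offsets for GC content and length (−0.53). GSK2830371 in K1 raised *FDXR* (0.66 ± 0.07) and *SLC48A1* (0.59 ± 0.07), and these calls were lost without DMSO library 2 (0.58 and 0.57) and with offsets for GC content and length (0.50 and 0.45). The *SLC48A1* call was also lost without GSK2830371 library 2 or combination library 1 (0.58 each) and by DESeq2 (0.57).

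By group, the counts stand beside 35.5% of all genes called under nutlin and 44.2% under the combination in TPC1 and 9.27% and 15.7% in K1. Heme turnover had 3 of 9 genes raised and 1 lowered by nutlin in TPC1 and 5 raised and 1 lowered by the combination, while in K1 nutlin gave no call and the combination 2 raised and 1 lowered. Of 7 tested genes of uptake and reduction, nutlin raised 3 and lowered 4 in TPC1 and raised 1 in K1. Export and the hepcidin axis had 2 of 4 tested genes lowered by nutlin in TPC1 and 1 of 6 in K1. Of 18 tested genes of mitochondrial iron and cluster assembly, 2 rose and 2 fell under nutlin in TPC1 and 2 rose in K1. Cytosolic cluster assembly had 1 of 9 genes raised and 2 lowered by nutlin in TPC1 and 1 lowered in K1, and of 8 chaperones and ferritinophagy genes 1 was lowered in TPC1 and none was called in K1. Among messages outside the members with a reported iron responsive element, *EPAS1* (1.63 ± 0.09) and *CDC42BPA* (1.38 ± 0.15) rose under nutlin in TPC1. Both are named although the naming rule did not pick them in that comparison, and were chosen after their values were seen.

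**Figure D5:**
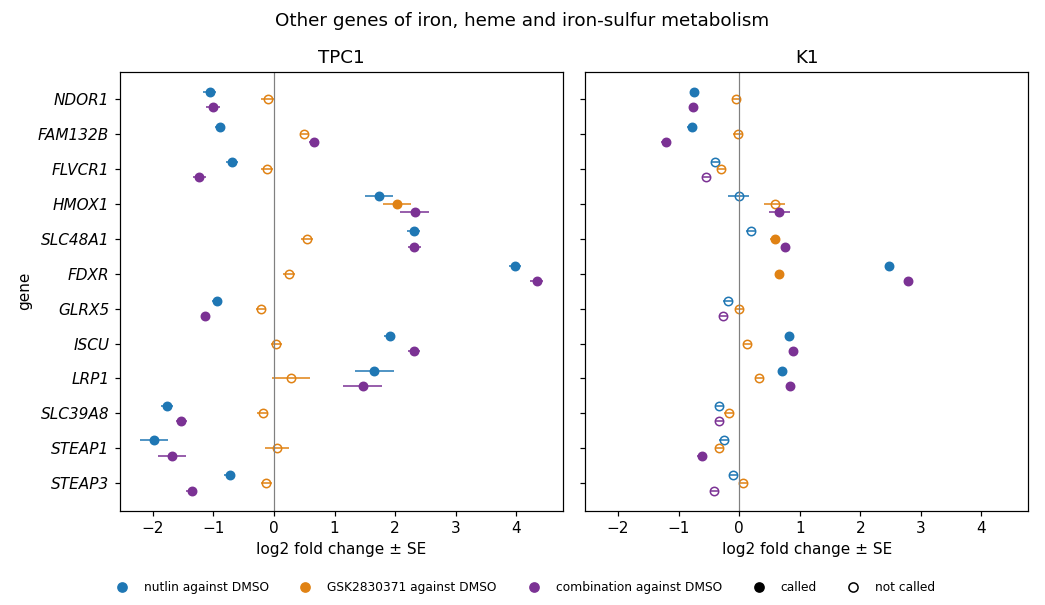
Log2 fold change against DMSO of the other iron, heme and cluster genes, in TPC1 (left) and K1 (right), with bars for the standard error and filled points for called genes. *FDXR* rises by 3.98 under nutlin in TPC1 and by 2.48 in K1, and *HMOX1* is called under GSK2830371 in TPC1.

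*HMOX1*, the heme oxygenase that frees iron from heme, was the 1 listed gene called under GSK2830371 alone in TPC1. It stood at 129 and 146 CPM with DMSO in TPC1, at 440.4 and 459 CPM with nutlin, at 574 and 596 CPM with GSK2830371 and at 874 and 462 CPM with the combination. All treated libraries were above DMSO, and the combination libraries were far apart. The log2 fold change was 2.04 ± 0.23 under GSK2830371 (adjusted p = 0.00499), 1.74 ± 0.23 under nutlin (adjusted p = 0.000189) and 2.33 ± 0.24 under the combination (adjusted p = 2.37e-05) by edgeR with Benjamini-Hochberg. In K1, DMSO libraries held 409.9 and 603 CPM, nutlin 577 and 426, GSK2830371 856 and 655 and the combination 900.4 and 741. GSK2830371 gave 0.58 ± 0.17 there (adjusted p = 0.0301, edgeR with Benjamini-Hochberg), under 1.5-fold, and was called without DMSO library 2 (0.89) or GSK2830371 library 2 (0.77). The combination was called at 0.67 ± 0.17 (adjusted p = 0.0064, edgeR with Benjamini-Hochberg), but not without DMSO library 1 (0.41), without combination library 1 (0.50) or by DESeq2 (0.66). It was also called against nutlin in K1 (0.67 ± 0.17), but not without nutlin library 2 (0.48) or combination library 1 (0.50) or by DESeq2 (0.66), and in TPC1 it was called against nutlin and against GSK2830371 when combination library 3 was left out (0.97 and 0.67), from 0.59 ± 0.23 and 0.29 ± 0.22 with all libraries. Nutlin in K1 gave −0.01 ± 0.17, the combination against GSK2830371 there 0.08 ± 0.17 and the interaction there 0.09 ± 0.24, none of them called.

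Between the combination and nutlin in TPC1, where 12.1% of all genes were called, 3 of the listed genes rose, *FAM132B* (1.55 ± 0.09), the importer *SLC39A14* (0.99 ± 0.11) and the mitochondrial chaperone *HSPA9* (0.76 ± 0.09). The 3 largest of 4 falls were those of *PROM2* (−1.01 ± 0.16), *HFE* (−0.77 ± 0.15) and *HMOX2* (−0.64 ± 0.10). In K1, 2 rose and none fell (edgeR), beside 2.68% of all genes called. Against GSK2830371, the combination raised 11 and lowered 13 in TPC1, beside 38.5% of all genes called, led by *FDXR* (4.09 ± 0.11), *ISCU* (2.28 ± 0.09) and *SLC48A1* (1.78 ± 0.10) and by *SLC39A8* (−1.34 ± 0.09), *STEAP3* (−1.24 ± 0.10) and *FLVCR1* (−1.12 ± 0.11). In K1, where 13.1% of all genes were called, it raised 3, *FDXR* (2.13 ± 0.07), *CDC42BPA* (0.91 ± 0.06) and *ISCU* (0.76 ± 0.06), and lowered 3, *FAM132B* (−1.19 ± 0.08), *NDOR1* (−0.70 ± 0.06, not called with offsets for GC content and length, −0.57) and the transporter *ABCG2* (−0.65 ± 0.10).

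The interaction was positive for 3 listed genes and negative for 2 in TPC1, beside 6.32% of all genes called. *FAM132B* (1.05 ± 0.12) and the ferric reductase *CYBRD1* (−0.90 ± 0.11) stayed called whichever library was left out. *SLC39A14* (0.72 ± 0.16) was not called without either nutlin library, either GSK2830371 library, DMSO library 1 or combination library 1 (0.61 to 0.83). *HSPA9* (0.69 ± 0.13) was not called without either nutlin library or GSK2830371 library 1 (0.63 to 0.74), and *HMOX1* (−1.45 ± 0.32) not without either nutlin library, either GSK2830371 library or DMSO library 1 (−1.48 to −1.36).

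Between the untreated lines, K1 was higher in 12 and lower in 7 of 61 listed genes, beside 46.2% of all genes called. Among those with at least 5 CPM in the higher line the extremes were *STEAP1* (2.64 ± 0.13), *EPAS1* (2.36 ± 0.07) and *ABCG2* (2.12 ± 0.13) above and *MMS19* (−1.52 ± 0.07), *FECH* (−1.32 ± 0.09) and *SLC25A37* (−1.01 ± 0.09) below, the last pair serving heme synthesis. *STEAP1* and *ABCG2* met that limit only in K1, and stood at 3.93 and 2.39 CPM in TPC1 with DMSO. *HMOX1* was also called higher in K1, by 1.87 ± 0.24. The nutlin response was higher in K1 for 7 and lower for 11, beside 19.2% of all genes called. With at least 5 CPM in the highest group it differed most for *STEAP1* (1.67 ± 0.22), *SLC39A8* (1.41 ± 0.13) and *SLC39A14* (0.87 ± 0.12) against *SLC48A1* (−2.15 ± 0.14), *HMOX1* (−1.78 ± 0.33) and *EPAS1* (−1.60 ± 0.10). In TPC1 *STEAP1* was low throughout this comparison, at a mean of 3.93 CPM with DMSO and 0.925 CPM with nutlin. The combination response was higher in K1 for 9 and lower for 14, beside 25.7% of all genes called, with *SLC39A8* (1.17 ± 0.12), *STEAP1* (1.06 ± 0.21) and *STEAP3* (0.92 ± 0.11) against *FAM132B* (−1.90 ± 0.13), *HMOX1* (−1.68 ± 0.33) and *STEAP2* (−1.59 ± 0.17).

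The GSK2830371 response was lower in K1 for *HMOX1* (−1.45 ± 0.33) and *STEAP2* (−0.80 ± 0.17), beside 2.18% of all genes called. *HMOX1* was not called without either GSK2830371 library of either line or DMSO library 2 of K1 (−1.66 to −1.14), nor *STEAP2* without DMSO library 3 or GSK2830371 library 1 of TPC1, either DMSO library of K1 or GSK2830371 library 1 of K1 (−0.80 to −0.60). The *STEAP2* call was also lost with offsets for GC content and length (−0.43) and with the compared groups alone (−0.82). The combination against nutlin differed between the lines for 5 listed genes, beside 5.11% of all genes called. *CYBRD1* (0.73 ± 0.12) and *HFE* (0.71 ± 0.19) were higher in K1, and *FAM132B* (−1.98 ± 0.13), *ABCG2* (−0.80 ± 0.18) and *SLC39A14* (−0.66 ± 0.12) lower. *HMOX1* differed by 0.10 ± 0.32 with all libraries and had no call. Not called were *ABCG2* without combination library 2 of K1 (−0.76), *SLC39A14* without combination library 1 of TPC1 (−0.55), and *HFE* without either nutlin library or combination library 3 of TPC1, nutlin library 1 or combination library 2 of K1 (0.54 to 0.73).

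The genes whose pattern was most like that of a member were found as the smallest root mean square difference in log2(CPM + 0.5), centred within each line, over the 16 libraries. This is a description of shared libraries and depth, with no test. For *FTH1*, whose own deviations had a root mean square of 0.31, these were *PRAF2* (0.0862), *FAM149B1* (0.0883) and *C9orf9* (0.0902) among 10650 genes. For *FTL* (own value 0.27) they were *TOM1* (0.0768), *ATP6V1E1* (0.0769) and *TOLLIP* (0.0882). For *TFRC* (0.25) they were *WAPAL* (0.0718), *PPP6R3* (0.0770) and *MTDH* (0.0806), and for *SLC40A1* (0.49) they were *PDCD4* (0.162), *RPL23AP7* (0.187) and *CD46* (0.188). *FTH1* was not among the 3 genes nearest to *FTL*, nor *FTL* among those nearest to *FTH1*.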

How the data were processed

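Stranded, poly(A)-enriched RNA of 16 libraries was sequenced by the authors, who aligned the reads to GRCh37/hg19 and counted them per gene symbol by strand with the UCSC iGenomes annotation, leaving out reads of mapping quality under 10. The submitters' processing notes name TopHat2 2.0.13, Bowtie2 2.2.3.0 and HTSeq 0.6.1. The deposited values are raw counts, whole numbers without normalization, and 4539 of 25369 genes have none. Reads that fit several places are lost, which can lower genes with near-identical copies such as *FTH1* and *FTL*.

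Counts were analysed with edgeR 4.0.16 in R 4.3.3, and Python 3.11.15 served for plots. DESeq2 1.42.0, limma 3.58.1 and mgcv 1.9.3 entered the alternatives. Genes over 0.1 CPM in at least 2 libraries were kept. Each line's fit held all 4 treatments, scaled by TMM (factors 0.961 to 1.04 in TPC1 and 0.981 to 1.03 in K1, 4 residual degrees of freedom) and its contrasts were tested with the quasi-likelihood F test of edgeR, adjusted by Benjamini-Hochberg. Differences between the lines came from 1 fit of 8 groups (factors 0.938 to 1.06, 8 residual degrees of freedom). Replicates varied more than counting alone gives, with a variance ratio of 11.6 to 48.3 in TPC1 and of 4.96 to 8.16 in K1. The steps were tested on simulated data.

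Other settings took DESeq2 size factors or library size in place of TMM, replaced the filter by filterByExpr or none, the test by DESeq2's Wald test, and the joint fit by the compared groups alone, and added a replicate block, offsets for the trend with GC content and length or both, and left out each library in turn. GC content and length were known for 87.1% of tested genes in TPC1, 86.8% in K1 and 86.4% across the lines. The ratio of *FTL* to *FTH1* was also taken per length and with the counts of copies added. Leaving out a library leaves 1 in its group, whose spread is then taken from the other groups.

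Named besides the members were, per comparison, up to 3 called genes of the iron lists with the largest change each way, with a mean of 5 CPM or more in the higher group, and *HMOX1* throughout. The 3 genes most like *FTH1*, *FTL*, *TFRC* and *SLC40A1* were sought among genes with at least 5 CPM. The members and lists were chosen with earlier results of these data known. Coordinates, transcript lengths and sequences are those of GRCh37 and GENCODE v44lift37, which is not the annotation used for counting.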

Additional observations from a re-analysis of the deposited data

Results flagged for a closer look

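In 4 results the response to a treatment differed between the lines by a test of the difference itself (edgeR with Benjamini-Hochberg in the fit of all 16 libraries), each given as K1 minus TPC1. The response of *FTH1* to nutlin differed by −0.83 ± 0.18 and that of *FTL* by −0.75 ± 0.16. Both treated libraries exceeded DMSO in both lines, so it is the size and not the direction that differs. The response to the combination differed by −0.94 ± 0.18 for *FTH1* and by 0.78 ± 0.09 for *ACO1*, which fell in TPC1 and stayed between 132 and 149 CPM in K1. The *FTL* difference is the least firm, at −0.57 and no longer called without DMSO library 1 of TPC1. DMSO levels also differed between the lines, for *FTH1* by 1.46 and for *ACO1* by −1.05, and the part of the starting level in the differences was not tested. The nutlin responses of *CDKN1A* and *MDM2* were also smaller in K1, by −2.48 ± 0.15 and −1.95 ± 0.12 in the same test. The part of that difference in the ferritin results was not tested either.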

How the results depend on the processing

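Member fold changes kept their direction and their side of the threshold in 2910 comparisons of an alternative with the reported value, lost a call in 17, gained 1 in 16 and reversed in none, and the counts of called members kept within 1.5 times in 317 and moved in 10. In the combination against nutlin in TPC1 the count of called members went from 0 to 1 with library size scaling and ran from 0 to 1 when each library was left out in turn (1 without nutlin library 3 or combination library 3). In the combination against GSK2830371 in TPC1 it went from 3 to 1 with offsets for GC content and length, to 1 with these and a replicate block, and ran from 1 to 4 over the libraries left out (1 without GSK2830371 library 1). In the interaction in TPC1 it went from 0 to 1 with the offsets, to 1 with offsets and replicate block, and ran from 0 to 1 (1 without DMSO library 3). In the nutlin response between the lines it ran from 1 to 2 (1 without TPC1 DMSO library 1). The cause was not tested.

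Divided by transcript length, the ratio of *FTL* to *FTH1* was 1.77, 1.67, 1.72 and 1.44 in TPC1 and 0.535, 0.535, 0.559 and 0.591 in K1 with DMSO, nutlin, GSK2830371 and the combination, by construction a constant factor. Scaling by library size moved the median of all genes by −0.10 to 0.11 and the offsets by −0.11 to 0.04, and DESeq2 size factors by −0.02 to 0.02.

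The difference between the replicate numbers correlated across the 4 treatments of TPC1 at 0.496 to 0.696 over 12303 genes and across those of K1 at −0.357 to 0.376 over 12546 genes, and genes are not independent replicates. The main fit did not take the libraries as paired, because the study's methods name no replicate block. In TPC1 a shift shared by libraries of the same number therefore adds to the error of the main fit. The fit with a replicate block alone changed no count of called members, such as the 4 under nutlin in TPC1 and the 1 in K1. With 2 libraries per group and 41 to 197 counts for *SLC40A1*, small differences in that gene were not detectable.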
